A study of Mus musculus and Homo sapiens with 15 samples.

Results

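Brain slices that received the full RBFOX2-INSCRIBE reaction were compared with slices that received buffer alone, to describe which genes gained C-to-U conversions over those already present in untreated tissue. The groups were taken from the sample labels: 3 RBFOX2-INSCRIBE libraries and 3 buffer-only libraries, 6 of the 15 libraries of the series. All came from wildtype female C57BL/6J mice, 2 months old, whose brains were snap frozen and cut into 20 µm coronal slices, 1 slice per replicate, with paraformaldehyde (PFA) named in the labels as the fixative. RBFOX2-INSCRIBE slices were incubated with a rabbit antibody to RBFOX2 and then with APO1-Nb, the cytidine deaminase APOBEC1 fused to an antibody-binding nanobody, and left to edit overnight. Buffer-only slices had neither antibody nor enzyme. The 3 enzyme-only brain libraries, which had APO1-Nb without antibody, are given beside both groups as values and took part in the gene fit, and the HEK293XT libraries were not used. The number of mice is given as 2 in the methods and as 1 in the reporting form, and the labels do not tie slices to mice. Slices therefore shared an animal, and every p-value here measures the spread between slices, not between animals.

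RBFOX2 belongs to a family of RNA-binding proteins (RBFOX1, RBFOX2 and RBFOX3) that control alternative splicing in neurons, heart and muscle. The proteins bind the RNA sequence UGCAUG, often in introns beside the exons they regulate, and also in 3′ ends of messenger RNAs. APOBEC1 turns C into U in RNA and prefers a C that follows A or U, so a bound RNA gains edited bases around the place where the antibody holds the enzyme. A C-to-U change read in a buffer-only library has another origin, such as a genomic variant, a sequencing error or damage to the RNA, and forms the background of the assay.

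C-to-U sites were those the study called with SAILOR, a caller of RNA edits. Those with a confidence score above 0.5 and fewer than 0.8 of their covering reads edited were kept, which is the study's own filter. Sites that passed were covered by a median of 16 to 17 reads in each of the 6 libraries, and between 88.8% and 91.3% of them rested on 1 edited read, so no single site is a precise measurement. Relative depth, taken from the cover of 210 sites that passed the filter in all 9 brain libraries, was 1.09, 1.25 and 0.91 in RBFOX2-INSCRIBE and 1.26, 0.99 and 0.84 in buffer-only. The number of sequenced reads is not known here. Markers of neurons carried 4972 to 5732 CPM (edited reads of a gene scaled to a common total of all edited reads in genes) in RBFOX2-INSCRIBE and 4029 to 4628 in buffer-only, and those of blood 0 to 6, in slices labelled as whole brain sections. The neuron marker Tubb3, the choroid plexus marker Ttr and the red cell genes Hba-a1 and Hba-a2 held no edited read in these 6 libraries.

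Stretches of reference RNA are shown first, because they hold UGCAUG and carried a cluster of edited bases in all 3 RBFOX2-INSCRIBE libraries and in no buffer-only library. They were read from GRCm38 (mm10) on the strand of the RNA, 5′ to 3′, and the capitals mark UGCAUG. The 6 exonic stretches, each 30 bases around the motif, lie in genes with the largest gains in edited reads.
1700020I14Rik, chr2:119605130-119605159, plus strand: caguugaaguuuUGCAUGuaucauugcuuu
Zbtb18, chr1:177449458-177449487, plus strand: acgcuacagaaaUGCAUGaguuucaauaua
Sparcl1, chr5:104079422-104079451, minus strand: aaaacauuuguuUGCAUGugagagaagaca
Meg3, chr12:109566736-109566765, plus strand: cacacugccuggUGCAUGgucccugucaug
Rab10os, chr12:3238409-3238438, plus strand: uugaaguagguuUGCAUGagcugaggugac
Rab3c, chr13:110056721-110056750, minus strand: acacacaugaacUGCAUGucuuaccugacc

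The other 4 are whole intronic clusters, the strongest with UGCAUG and with no cluster in any enzyme-only library, and they were picked after their values were seen. Magi2 encodes a scaffold of the synapse, Erc2 a scaffold of the presynaptic active zone, Nell2 a secreted neuronal protein and Dlg2 a postsynaptic scaffold.
Magi2, chr5:19402662-19402781, plus strand: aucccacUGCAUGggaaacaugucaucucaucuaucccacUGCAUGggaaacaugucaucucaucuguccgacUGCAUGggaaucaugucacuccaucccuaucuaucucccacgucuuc
Erc2, chr14:27976839-27976988, plus strand: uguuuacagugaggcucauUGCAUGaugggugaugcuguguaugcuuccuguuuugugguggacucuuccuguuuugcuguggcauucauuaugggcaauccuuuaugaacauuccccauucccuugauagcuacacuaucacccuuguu
Nell2, chr15:95469766-95469915, minus strand: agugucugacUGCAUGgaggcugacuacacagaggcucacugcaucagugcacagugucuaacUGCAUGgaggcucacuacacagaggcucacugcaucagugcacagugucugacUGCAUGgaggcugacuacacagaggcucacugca
Dlg2, chr7:91492966-91493085, plus strand: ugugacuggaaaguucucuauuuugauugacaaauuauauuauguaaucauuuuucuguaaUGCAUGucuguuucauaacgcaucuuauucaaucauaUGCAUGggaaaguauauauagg

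These intronic clusters had edited bases in every RBFOX2-INSCRIBE library and none in the other groups, which follows from how they were picked. The Magi2 cluster held 5, 12 and 9 edited bases in RBFOX2-INSCRIBE replicates 1 to 3. The Erc2 cluster held 4, 9 and 12, the Nell2 cluster 9, 4 and 4, and the Dlg2 cluster 9, 5 and 2. In the Magi2 and Nell2 clusters UGCAUG occurs 3 times in a tandem repeat, and the most edited C stood directly before the third copy, at bases 73 and 116 of the printed runs, though it rested on 2, 5 and 3 edited reads in Magi2 and on 3, 0 and 1 in Nell2. In the exonic Meg3 stretch the most edited C was base 3, upstream of the motif, with 15 edited of 832 covering reads, 12 of 1055 and 16 of 649 in the 3 RBFOX2-INSCRIBE libraries. Of the buffer-only libraries only replicate 3 listed that C, with 2 edited of 791 reads, and 2 enzyme-only libraries listed it with 1 of 697 and 3 of 688. All exonic loci but that of Meg3 also carried a cluster in enzyme-only libraries. It was found in 2 of them for 1700020I14Rik, 1 for Zbtb18, 3 for Sparcl1, 3 for Rab10os and 2 for Rab3c. The Sparcl1 cluster was dense in enzyme-only as well. Its most edited C, outside the bases shown, had 66, 59 and 61 edited reads with the full reaction. That C had 58, 71 and 48 in enzyme-only and 5, 8 and 5 in buffer-only, with 854 to 1409 covering reads in each library.

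RBFOX2-INSCRIBE slices held 1.498 times the edited sites of buffer-only slices, and the gain was in C preceded by A or U. Sites that passed the filter numbered 280518, 281314 and 243545 in RBFOX2-INSCRIBE and 217309, 161163 and 159087 in buffer-only. Every RBFOX2-INSCRIBE library was above every buffer-only library, with means of 268459 ± 21580 and 179186 ± 33032 (SD, n = 3 each, exact two-sided permutation p = 0.1, the smallest that 3 against 3 libraries allow). Enzyme-only libraries lay between, at 225186, 239874 and 221730. Edited reads followed the sites, at 338351, 339567 and 295672 against 262593, 200515 and 193252 (exact permutation p = 0.1).

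A or U stood before the C at 65.0%, 61.5% and 65.8% of RBFOX2-INSCRIBE sites and at 52.5%, 51.9% and 51.8% of buffer-only sites, with 61.0%, 62.3% and 63.2% in enzyme-only. The groups compared did not overlap (64.1% ± 2.28 and 52.0% ± 0.395, SD, n = 3 each, exact permutation p = 0.1). Scaled to relative depth, sites after A numbered 78640 ± 11155 in RBFOX2-INSCRIBE and 39548 ± 3074 in buffer-only, a ratio of 1.99, and sites after U 81878 ± 8269 and 51800 ± 3844, a ratio of 1.58 (SD, n = 3, exact permutation p = 0.1 for each). Sites after C and after G overlapped between the groups, with ratios of 1.04 (exact permutation p = 0.6) and 1.09 (p = 0.2). The G and C contexts therefore serve below as a readout in which the groups did not separate.

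**Figure D1:**
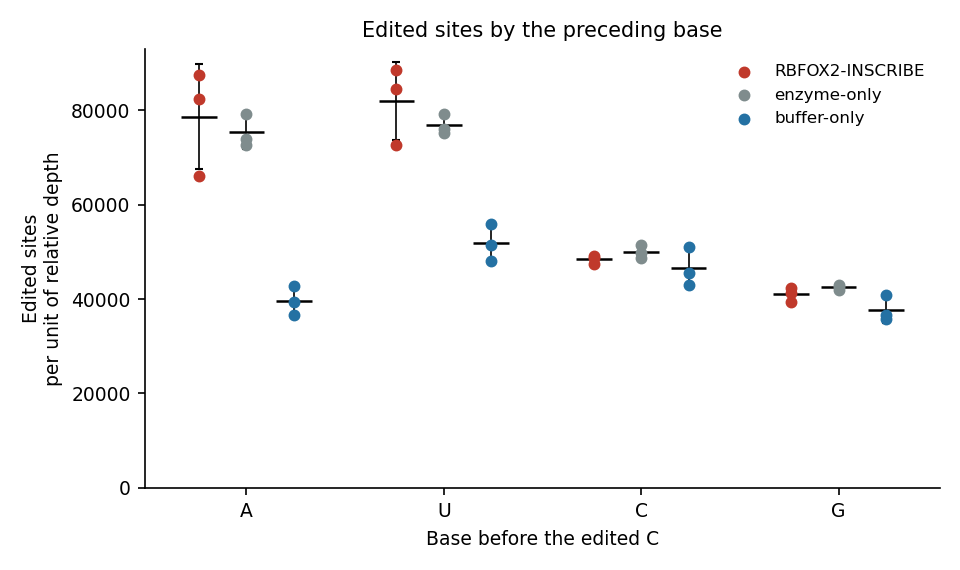
Edited sites per unit of relative depth, by the base before the edited C; each point is 1 library, with 3 per group, and lines give the mean with SD. The RBFOX2-INSCRIBE points lie above the buffer-only points after A and after U, and overlap with them after C and after G.

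Few sites held several edited reads, and RBFOX2-INSCRIBE had more of them. Sites with 5 to 9 edited reads numbered 323, 260 and 296 in RBFOX2-INSCRIBE, 172, 171 and 160 in enzyme-only and 146, 118 and 96 in buffer-only. All RBFOX2-INSCRIBE libraries were above the others. Of these sites, 80.7%, 69.9% and 87.0% followed A or U in RBFOX2-INSCRIBE, against 51.7%, 56.5% and 51.6% in buffer-only. RBFOX2-INSCRIBE replicate 2 had the lowest A or U share of its group in every class of edited reads. The edited share of reads over all kept sites was 4.49% ± 0.0448 in RBFOX2-INSCRIBE and 4.59% ± 0.0800 in buffer-only (SD, n = 3, exact permutation p = 0.1), and over every listed site it turned to 0.256% and 0.222%. Only sites with an edited read are listed, so neither value is an editing rate of the RNA.

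FLARE, which joins nearby edits into clusters, gave 222747, 229430 and 191648 clusters in RBFOX2-INSCRIBE and 188391, 140879 and 139884 in buffer-only, with no overlap and a ratio of 1.37 (exact permutation p = 0.1). The intron share of clusters was 66.7%, 69.5% and 62.9% against 68.4%, 61.0% and 62.2%, and overlapped (exact permutation p = 0.4). Enzyme-only libraries had 57.4%, 60.5% and 59.3% of their clusters in introns.

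UGCAUG was more frequent in clusters of the full reaction, and its share grew with the number of edited bases in a cluster. It lay in 2.59%, 2.42% and 2.63% of RBFOX2-INSCRIBE clusters, in 1.55%, 1.502% and 1.46% of buffer-only clusters, and in 1.57%, 1.62% and 1.62% of enzyme-only ones. RBFOX2-INSCRIBE stood above all other brain libraries, at 2.54% ± 0.109 against 1.504% ± 0.0426 in buffer-only (SD, n = 3, exact permutation p = 0.1). In intronic clusters the share was 2.93%, 2.66% and 3.01% against 1.72%, 1.71% and 1.63%, and in exonic clusters 1.88%, 1.86% and 1.95% against 1.18%, 1.17% and 1.19%. In windows of the same length 500 bases away, intronic clusters of RBFOX2-INSCRIBE had it at 1.92%, 1.84% and 1.93%. Only the letters UGCAUG were searched, on the strand of the RNA.

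Among intronic clusters with 1 edited base, 2.28%, 2.20% and 2.38% held UGCAUG in RBFOX2-INSCRIBE and 1.68%, 1.64% and 1.59% in buffer-only. With 5 to 9 edited bases the shares were 19.9%, 20.4% and 17.7% of 833, 686 and 758 clusters in RBFOX2-INSCRIBE, against 3.85%, 3.85% and 2.41% of 130, 78 and 83 clusters in buffer-only and 2.80%, 2.99% and 4.04% in enzyme-only. With 10 or more they were 23.5%, 23.8% and 32.4% of 102, 105 and 102 clusters in RBFOX2-INSCRIBE. All 3 RBFOX2-INSCRIBE libraries were thus above all others in each of these classes. None of 41, 28 and 25 such buffer-only clusters held it, which allows shares of up to 7.32%, 10.7% and 12%, nor did any of 36, 39 and 35 in enzyme-only, which allows up to 8.33%, 7.69% and 8.57% (counting error only).

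Exonic clusters with many edited bases were also richest in UGCAUG in RBFOX2-INSCRIBE. With 5 to 9 edited bases, UGCAUG lay in 13.1%, 12.7% and 11.2% of RBFOX2-INSCRIBE clusters, in 4.64%, 3.77% and 4.77% of enzyme-only clusters and in 1.08%, 2.47% and 0% of buffer-only clusters, where 0 of 118 allows up to 2.54%. With 10 or more, RBFOX2-INSCRIBE had 21.0%, 11.97% and 21.8%, and replicate 2 was the lowest. Clusters with many edited bases were also longer, with a median of 105 to 135 bases for intronic RBFOX2-INSCRIBE clusters with 10 or more against 45 for those with 1, and of 45 to 60 for buffer-only clusters with 10 or more; the part of length in the share was not tested beyond the windows that follow. The windows 500 bases away, matched in length, held UGCAUG in 6.86%, 11.4% and 7.35% of these cases.

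**Figure D2:**
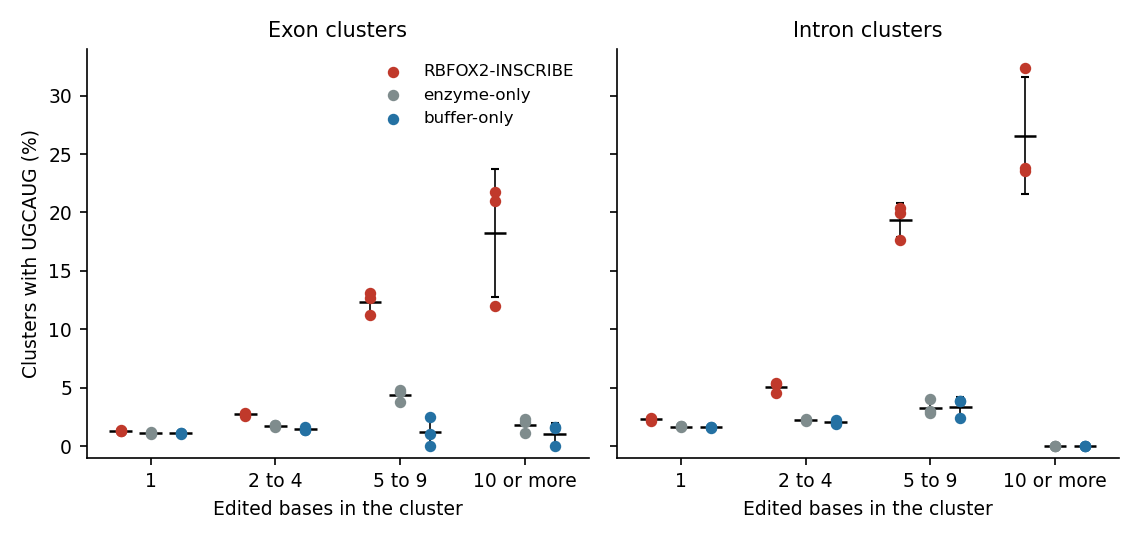
Percent of exonic (left) and intronic (right) clusters that hold UGCAUG, by the number of edited bases in the cluster; points are libraries and lines the mean with SD of the 3 libraries of a group. The RBFOX2-INSCRIBE points climb from 2.20% to 2.38% with 1 edited base in introns to between 23.5% and 32.4% with 10 or more, where buffer-only and enzyme-only are at 0.

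Around the centre of intronic clusters, the 50-base bin just upstream held UGCAUG in 3.27% ± 0.205 of RBFOX2-INSCRIBE clusters, 2.09% ± 0.00559 of buffer-only clusters and 2.11% ± 0.0462 of enzyme-only clusters (SD, n = 3 each). In the outermost upstream bin, centred 475 bases away, the values were 2.21%, 2.08% and 2.06%. The highest bin of RBFOX2-INSCRIBE was the one just upstream of the centre, and the buffer-only bins had no such peak. In exons the bin just upstream held the motif in 2.01% of RBFOX2-INSCRIBE and 1.43% of buffer-only clusters. The exonic RBFOX2-INSCRIBE bins were nearly flat, at 1.82% in the outermost upstream bin and 1.96% in the bin centred 375 bases downstream. Buffer-only instead dipped at the centre, from 1.74% and 1.83% in the outermost bins to 1.41% just downstream. Much of the exonic difference at the centre was thus a dip in buffer-only.

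**Figure D3:**
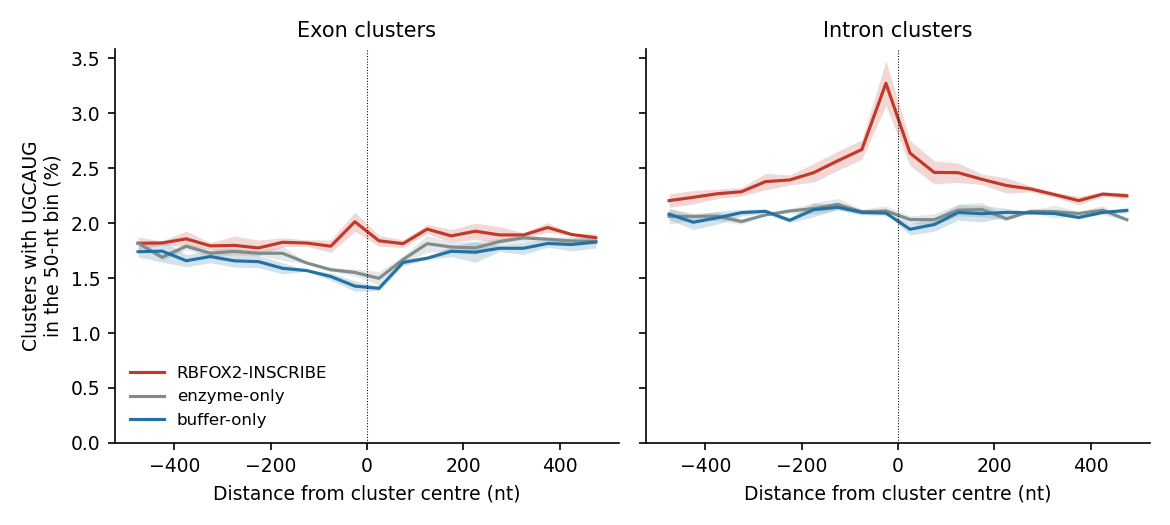
Percent of clusters with UGCAUG in 50-base bins by distance from the cluster centre in nucleotides, negative upstream, for exonic (left) and intronic (right) clusters; lines are the mean of 3 libraries and bands the SD. The RBFOX2-INSCRIBE line peaks at 3.27% just upstream of the centre in introns, and the buffer-only line has no peak there.

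The clusters of all 9 brain libraries were then merged on each strand into 1169370 loci, of which 2.17% held UGCAUG. A locus with clusters in all 3 RBFOX2-INSCRIBE libraries and in no buffer-only library was found 3299 times, in 2062 genes, and 13.1% of these held UGCAUG (15.8% of 1594 in introns and 10.4% of 1688 in exons). The opposite pattern, all 3 buffer-only and no RBFOX2-INSCRIBE library, was found 1063 times, with UGCAUG in 2.45%. Loci with clusters in all 3 libraries of both groups numbered 587, and 9.37% of them held it. The motif was thus also frequent at loci edited in every library of the 2 groups. Merged loci differ in length, and no share in windows of matched length is given for them, so the part of length was not tested. Of the 3299 loci, 1382 had no cluster in any enzyme-only library and 179 had one in all 3. Of the 1063 loci of the opposite pattern, 462 had none and 54 had one in all 3. Among all 1169370 loci, 685465 had none, so the count of 1382 is no measure of dependence on the antibody. By gene, the highest numbers of loci of the first pattern were 33 in Celf2, a splicing and translation regulator, 26 in Rbfox1, 23 in Kcnip4, a potassium channel-interacting protein, 23 in Nrxn3, a presynaptic adhesion protein, and 21 in Csmd1. The same genes held 9, 10, 6, 6 and 8 loci of the opposite pattern. They span 970, 1526, 1135, 1612 and 1643 kb, and neither count was scaled to gene length.

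Edited reads were summed per gene and compared as shares of all edited reads of a library, so a gene called higher took a larger part of the edits than in buffer-only. Of 6357 genes tested, 89 (1.4%) rose and 15 (0.236%) fell in RBFOX2-INSCRIBE at an adjusted p under 0.05 (edgeR quasi-likelihood test, Benjamini-Hochberg adjustment over all genes tested), and 782 were under an unadjusted p of 0.05. The median log2 change was 1.33 among the 89 and -0.65 among the 15. Values of the 2 groups did not overlap for 1052 of the genes tested (16.5%), for 86 of the 89 and for all 15. At equal depth, with relative depth in place of shares, the median of all genes moved to 0.50 on the log2 scale and the calls to 1431 higher (22.5%) and 2 lower. Changes below are relative to all edits unless equal depth is named.

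Fitted apart by context, 90 of 4362 genes were higher in sites with A or U before the C (2.06%) and 3 of 2778 in sites with G or C before it (0.108%). The 89 genes had a median log2 change of 1.39 after A or U, where 84 were tested, and of 0.46 after G or C, where 46 were tested. These medians are a description, since reads of both contexts were part of those that chose the 89. Enzyme-only values were all above buffer-only for 46 of the 89 genes, beside 685 of all genes tested (10.8%), and all below RBFOX2-INSCRIBE for 44, beside 410 (6.45%). High RBFOX2-INSCRIBE and low buffer-only values chose the 89, which raises both counts. Of the 89, 83 are annotated as protein coding, and 48 had most of their edited reads in exons. Neither count was set against all genes tested, so neither marks a trait of the genes that rose.

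Among genes called higher with no overlap and at least 20 edited reads on average, 1700020I14Rik, Zbtb18, Trim37, Sparcl1, Rarb and Meg3 headed the rises, with log2 changes from 2.42 to 4.55. The largest was in 1700020I14Rik (chr2:119594297-119607502), known as Cyrano or Oip5os1, a conserved long non-coding RNA that binds a microRNA. It had 431, 244 and 436 CPM in RBFOX2-INSCRIBE and 17, 11 and 17 in buffer-only, with 55, 97 and 89 in enzyme-only. All RBFOX2-INSCRIBE values were above all others, at a log2 change of 4.55 (SE 0.344, adjusted p = 5.2e-16). The exonic stretch printed above was 1 of its clusters.

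Meg3 (chr12:109541001-109571726), an imprinted long non-coding RNA of neurons, had 720, 378 and 564 CPM against 129, 59 and 106 in buffer-only. Enzyme-only values of 71, 105 and 142 overlapped with buffer-only, and RBFOX2-INSCRIBE was above both (log2 change 2.42, SE 0.227, adjusted p = 1.7e-12). Trim37 (chr11:87127077-87220683), a ubiquitin ligase, had 524, 356 and 527 against 71, 70 and 34, with 87, 120 and 45 in enzyme-only (log2 change 2.93, SE 0.252, adjusted p = 5.1e-14). In both genes RBFOX2-INSCRIBE replicate 2 was the lowest of its group and still above every other brain library.

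Sparcl1 (chr5:104079111-104113733), a secreted synapse-forming protein of astrocytes, differed in its enzyme-only values. It had 549, 356 and 454 CPM in RBFOX2-INSCRIBE, 79, 65 and 56 in buffer-only, and 319, 411 and 344 in enzyme-only. All RBFOX2-INSCRIBE libraries were above all buffer-only libraries (log2 change 2.70, SE 0.226, adjusted p = 2.7e-14), but its values overlapped with those of the enzyme without antibody. Rab3c, a small GTPase of synaptic vesicles, was close to that pattern: 286, 186 and 212 against 66, 43 and 73, with 185, 168 and 170 in enzyme-only (log2 change 1.86, SE 0.261, adjusted p = 1.1e-06).

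The remaining 7 of the 12 largest rises were Zbtb18 (log2 change 3.21), a zinc finger repressor of cortical development, Rarb (2.503), the retinoic acid receptor beta, Rab10os (2.09), Ppp3cb (1.74), a catalytic subunit of the calcium-activated phosphatase calcineurin, Dgcr8 (1.65), a microRNA-processing protein, Zfand5 (1.61), a zinc finger protein, and Shroom2 (1.48), an actin-binding protein. Their adjusted p ranged from 8.8e-07 for Zbtb18 to 0.0039 for Shroom2. Rab10os is annotated antisense, and the labels list a stranded and a non-stranded kit for every sample, so reads of its partner cannot be told apart from its own with certainty. Without RBFOX2-INSCRIBE replicate 3 the call of Zfand5 was lost (adjusted p = 0.18), as it was without buffer-only replicate 2 (0.051), and that of Shroom2 was lost without buffer-only replicate 1 (0.057).

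**Figure D4:**
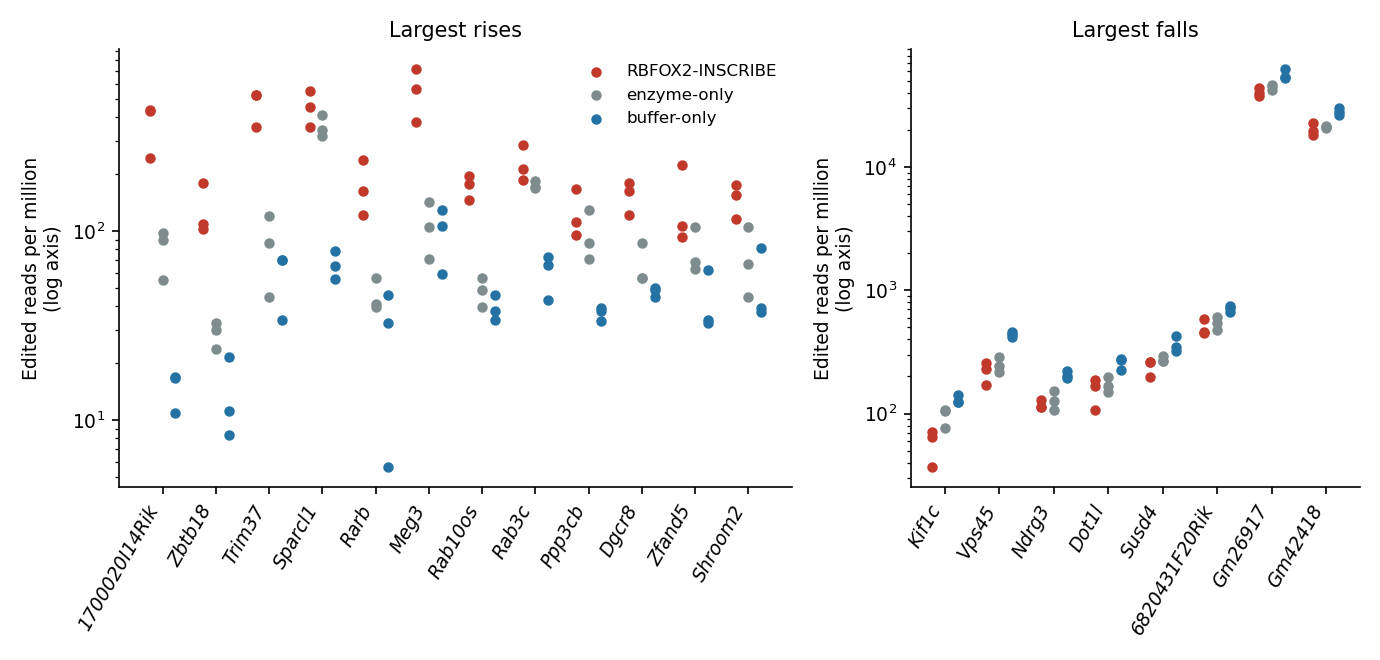
CPM of edited reads on a log axis for the 12 largest rises (left) and 8 largest falls (right), 1 point per library of the 3 groups. RBFOX2-INSCRIBE points lie above all buffer-only points in the left panel and below them in the right panel, and enzyme-only points are near RBFOX2-INSCRIBE for Sparcl1 and near buffer-only for Meg3.

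For several genes the gain was called in exons or in introns and not in both. Some were not fitted in both regions, and the difference between the 2 regions was not tested. In separate fits, chosen after seeing the data, 84 of 4696 genes were higher in exons (1.79%) and 33 of 2878 in introns (1.15%). Trim37 had 376 exonic edited reads summed over the RBFOX2-INSCRIBE libraries, against 41 for enzyme-only and 12 for buffer-only (log2 change 4.37), and 42, 24 and 24 in introns (0.18). Meg3 had 427, 18 and 20 exonic reads (3.82) and 69, 63 and 41 in introns (0.13). Both transcripts were higher in exons and not called in introns.

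Ppp3ca, the alpha catalytic subunit of calcineurin and an example target of the study, had 321 exonic edited reads summed over RBFOX2-INSCRIBE, 19 over enzyme-only and 12 over buffer-only (log2 change 4.14, adjusted p = 7.2e-11), and 776, 538 and 514 in introns (-0.04, adjusted p = 0.93). Over the whole gene it rose by 0.47 (SE 0.120, adjusted p = 0.019), from 888, 838 and 880 CPM in buffer-only to 1160, 1125 and 1410, with 665, 717.5 and 794 in enzyme-only. With the mean cover of its kept sites as an offset it fell by 0.77 instead (adjusted p = 0.0067, edgeR). The groups did not overlap in CPM, and the whole-gene call was lost without RBFOX2-INSCRIBE replicate 3 and without each buffer-only replicate. Ywhag, a 14-3-3 adaptor protein, likewise had 74, 5 and 6 exonic reads (3.01) and 46, 35 and 31 intronic reads (-0.06). Its whole-gene rise of 1.09 (SE 0.309, adjusted p = 0.049) lost its call in 5 of 6 fits that left out 1 library, and was -1.31 with the cover offset (adjusted p = 0.19).

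Rarb was called in introns, while its exons held too few edited reads to be fitted. It had 130 intronic edited reads summed over RBFOX2-INSCRIBE, 16 over enzyme-only and 2 over buffer-only, and 24, 19 and 16 in exons. Per library its whole-gene level was 122, 163 and 238 CPM against 46, 32 and 6, with 39, 41 and 57 in enzyme-only (log2 change 2.503, SE 0.364, adjusted p = 2.4e-06). Dgcr8 (113, 31 and 17 intronic reads, log2 change 2.09) and Rgs9 (157, 61 and 30, log2 change 1.76) were also higher in introns. The exons of Dgcr8 were not fitted either. The log2 change of Rarb was 2.80 in the G or C context and 2.24 in the A or U context, and that of Meg3 was -0.20 and 3.10.

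The densest 200 bases of a gene, picked on the RBFOX2-INSCRIBE reads and so given as a description, showed the dense stretches with every listed site counted. In Trim37 (chr11:87218717-87218916) they held 88, 67 and 51 edited reads in RBFOX2-INSCRIBE, against 8, 23 and 18 in enzyme-only and 4, 8 and 1 in buffer-only, at mean covers of 262 to 392.2, 290 to 386 and 335 to 480 reads. In Ppp3ca (chr3:136936153-136936352) they held 98, 79 and 83, then 33, 24 and 19, then 8, 4 and 3. The Meg3 stretch (chr12:109566260-109566459) held 210, 208 and 165 against 52, 35 and 39 in buffer-only. The Ppp3ca stretch contains UGCAUG, while those of Trim37 and Meg3 do not.

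App, the amyloid precursor gene, which the study showed as an example in a human cell line, had a dense stretch in both reactions with enzyme. It held 160, 79 and 79 edited reads with the full reaction, 87, 106 and 78 in enzyme-only and 14, 17 and 15 in buffer-only. The whole gene was not called (log2 change 0.12, adjusted p = 0.79), while its exons, with 88, 70 and 15 edited reads, were higher (1.96, adjusted p = 0.0038). In the Rbfox1 stretch (chr16:7293577-7293776), which contains UGCAUG, RBFOX2-INSCRIBE held 14, 30 and 9 edited reads, enzyme-only 2, 3 and 1, and buffer-only 1, 0 and 0. Of the 89 genes that rose, UGCAUG lay in the densest stretch of 30 (33.7%) when it was set on RBFOX2-INSCRIBE reads. It lay in that of 21 (23.6%) when set on enzyme-only reads and of 4 of 88 (4.55%) when set on buffer-only reads. Neighbouring stretches held it in 9.55% to 10.7% of cases. Low buffer-only reads helped choose the 89, so buffer-only stretches often rest on few reads and their share is a description. That of Trim37 held 3 beside 155 in RBFOX2-INSCRIBE, though that of Slc1a2 held 97 beside 252.

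The size of the gains depended on the site filter, which removes sites with few edited among many covering reads. With every listed site, all 12 largest rises were still called, but the log2 change of 1700020I14Rik went from 4.55 to 1.25, Sparcl1 from 2.70 to 0.34, Meg3 from 2.42 to 0.41 and Trim37 from 2.93 to 1.32, while that of Rarb stayed at 2.59 and Rab10os at 2.14. With the mean cover of each gene's kept sites as an offset, 4 of the 12 were still called, and Sparcl1 turned to -0.54. Kept sites of Meg3 had a mean cover of 241 reads in RBFOX2-INSCRIBE and 49.8 in buffer-only. Those of Sparcl1 had 164 and 16.3, and those of Rarb 12.4 and 17.6. This mean is over kept sites only, so it moves with where the edits lie and is no depth of the gene. In the dense Meg3 stretch, with every listed site, mean cover was 2402, 2698 and 1649 in RBFOX2-INSCRIBE and 2681, 1755 and 1890 in buffer-only. The part of cover in the gains was not tested.

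The falls were smaller and gave way at equal depth. The largest by the same rule were in Kif1c, a kinesin motor (log2 change -1.19, SE 0.298, adjusted p = 0.016), with 71, 64 and 37 CPM against 124, 141 and 123, and Vps45, a vesicle trafficking protein (-1.03, SE 0.174, adjusted p = 7.55e-05), with 228, 257 and 172 against 419, 443 and 459. Ndrg3 (-0.83), the histone methyltransferase Dot1l (-0.78), the complement regulator Susd4 (-0.65) and the pseudogene 6820431F20Rik (-0.54) followed. Every library of RBFOX2-INSCRIBE was below every buffer-only library for these 6 genes, and so was every enzyme-only library. At equal depth only Vps45 of the 8 largest falls was still called (-0.52, adjusted p = 0.040). Its densest stretch (chr3:96044746-96044945) held 79.3% of its RBFOX2-INSCRIBE edited reads. That stretch had 157 edited reads in RBFOX2-INSCRIBE, 155 in enzyme-only and 232 in buffer-only. After A or U, Vps45 had only 32 edited reads in RBFOX2-INSCRIBE and 29 in buffer-only, and was not called (-0.79, edgeR adjusted p = 0.44). A fall of Vps45 outside that stretch was not tested.

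Gm26917 and Gm42418, annotated long non-coding RNAs whose sequence overlaps ribosomal RNA, made up the largest block of background conversions. That block rested on few positions. Gm26917 had 21 kept sites over the RBFOX2-INSCRIBE libraries and 24 over the buffer-only libraries, and Gm42418 had 4 and 3. Of the RBFOX2-INSCRIBE edited reads, the densest stretch held 25629 of 36439 in Gm26917 and all 18125 in Gm42418. Gm26917 had 37572, 44127 and 40219 CPM in RBFOX2-INSCRIBE and 54147, 62208 and 53223 in buffer-only (log2 change -0.50, SE 0.071, adjusted p = 1.1e-06). Gm42418 behaved alike, at -0.50. At equal depth they stood at 0.02 and 0.01, and most of their edited reads in RBFOX2-INSCRIBE were in the G or C context, 33723 of 36439 and 18124 of 18125. Such reads can be shared with ribosomal copies, so their assignment to these genes is uncertain.

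None of the RBFOX genes was called by the edgeR test, none had an unadjusted p under 0.05 and DESeq2 called 0. At equal depth all 3 were called higher by the same test, at a median of 0.60, beside 22.5% of all genes and their median of 0.50. Rbfox1 had 5899, 5786 and 6182 CPM against 5464, 5078 and 6000 (log2 change 0.08, SE 0.086, adjusted p = 0.79), which overlapped. Rbfox2 had 643, 715 and 707 against 602, 519 and 611 (0.22, SE 0.136, adjusted p = 0.57), and Rbfox3 1125, 1116 and 1176 against 1166, 892 and 1115 (0.07, adjusted p = 0.88). Rbfox2 was the one member whose groups did not overlap, beside 16.5% of all genes tested with no overlap in either direction. Of 8 example targets of the study, 2 rose (Ppp3ca and Ywhag) and 0 fell, at a median of 0.52. The study showed Ppp3ca, Ywhag, Klc1 and Ppp3r1 in mouse brain, with these samples among others. It showed App, Pkm, Ogt and Dcun1d4 in a human cell line. At equal depth all 8 were called higher, at a median of 1.04. The others were Klc1 (0.61), Ppp3r1 (0.58), Pkm (0.57), Ogt (0.39), Dcun1d4 (0.27) and App (0.12).

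Gene lists were read against all genes tested, of which 1.4% rose and 0.236% fell at a median log2 change of -0.02, and at equal depth 22.5% were higher at a median of 0.50. Of 38 calcium signalling genes tested, 5 rose and 0 fell, at a median of 0.22, and 26 were higher at equal depth. They were both calcineurin catalytic subunits, Atp2a2 (1.11), the calcium pump of the endoplasmic reticulum, Ryr3 (0.73), a calcium release channel, and Calm2, a calmodulin gene. Atp2a2 had 276, 179 and 355 CPM against 100, 124 and 146, and its exons held 122 edited reads against 3. The log2 change of Atp2a2 was -0.17 in the G or C context and -0.48 with the cover offset.

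Lists of RNA-binding and synaptic genes held 1 or 2 calls each. Of 43 splicing regulators tested, 1 rose, Qk (0.60), which encodes quaking, with 527, 481 and 604 against 353, 352 and 331 and a median of 0.20 for the list. Of 43 genes with RBFOX-regulated exons, 1 rose, Snap25 (0.61), a SNARE protein, and 1 fell, the postsynaptic scaffold Dlgap1 (-0.48, and 0.03 at equal depth), at a median of 0.05. Snap25 had 575, 503 and 604 CPM against 336, 357 and 387. Of 36 presynaptic genes, Rab3c and Snap25 rose, and of 22 postsynaptic scaffolds Shank3 rose (0.90) and Dlgap1 fell. At equal depth 15 of the splicing regulators, 27 of the genes with RBFOX-regulated exons, 15 of the presynaptic genes and 13 of the scaffolds were higher.

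Of 38 voltage-gated channel genes, 2 rose, the calcium channel subunits Cacna2d3 (0.68) and Cacnb2 (0.64). None of 46 synaptic adhesion genes, 25 ionotropic receptor genes, 15 metabotropic receptor genes, 8 glycolysis genes or 12 chaperone and translation factor genes was called by the edgeR test. Of these 106 genes, 16 had an unadjusted p under 0.05 and DESeq2 called 0, and the list medians lay between -0.02 and 0.14. At equal depth 51 of the 106 were called higher, 30 of them adhesion and 12 ionotropic receptor genes, so the absence of calls held for shares alone. The count of those with no overlap between groups, against 16.5% of all genes, was 10 of 46 for adhesion and 5 of 25 for ionotropic receptors. Among motor proteins 1 of 27 rose, Dync1i2 (1.16), a dynein chain, with 196, 247 and 322 against 100, 151.4 and 84, and among cytoskeletal scaffolds 1 of 27, Map2 (0.62).

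Known APOBEC1 targets had 2 of 18 genes higher and 0 lower at a median of 0.26. Tmem30a, a subunit of lipid flippases, had 64, 32 and 128 CPM against 12, 0 and 0, with 4, 93 and 32 in enzyme-only, so enzyme-only spanned both groups. Long non-coding RNAs had 3 of 17 higher (1700020I14Rik, Meg3 and 2900097C17Rik) and 2 lower (Gm26917 and Snhg14), at a median of -0.07. Among 14-3-3 genes Ywhag alone of 5 was called, at a median of 0.54. No ribosomal protein or mitochondrial gene held enough edited reads to be tested.

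Markers of striatal neurons stood higher in the RBFOX2-INSCRIBE slices in both base contexts, and those of astrocytes after A or U. Of 11 striatal markers tested, 4 rose (Rarb, Pde10a, Rgs9 and Ryr3) and 0 fell, at a median of 0.63, and 7 of the 11 were higher with no overlap (16.5% of all genes had none, in either direction). Their summed CPM, over all 16 markers, were 3088, 3222 and 4318 in RBFOX2-INSCRIBE, 2043, 2437 and 2459 in enzyme-only and 2054, 2104 and 2353 in buffer-only. All RBFOX2-INSCRIBE slices were above all others, with replicate 3 the highest. After A or U the sums were 3318, 3493 and 4531 against 2160, 2055 and 2668 in buffer-only, and the striatal median was 0.71. In the G or C context, where the groups' sites overlapped, the sums were 2712, 2847 and 3961 against 1953, 2147 and 2064. These again did not overlap, and the striatal median was 0.68.

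Pde10a, a phosphodiesterase abundant in the striatum, had 1189, 1308 and 1762 CPM against 780, 844 and 1008 (log2 change 0.67, SE 0.129, adjusted p = 0.00087), and Rgs9, a regulator of striatal G protein signalling, 170, 150.7 and 319 against 46, 108 and 101 (1.33, SE 0.278, adjusted p = 0.0024). Both lost their calls without RBFOX2-INSCRIBE replicate 3, and Rgs9 also without buffer-only replicate 1. The part of the slices' cell composition in these results was not tested, and more cells of a type and more RNA per cell cannot be told apart in bulk libraries.

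Of 11 astrocyte markers tested, 3 rose (Sparcl1, Slc1a2 and Slc4a4) and 0 fell, at a median of 0.66. After A or U their summed CPM were 4519, 3720 and 4881 in RBFOX2-INSCRIBE, 4001, 4428 and 3775 in enzyme-only and 2920, 2546 and 2761 in buffer-only. In the G or C context they were 1746, 1412 and 1582 against 1461, 1685 and 1419, and overlapped. Both reactions with enzyme were above buffer-only and overlapped with each other after A or U, and no group stood apart after G or C. Slc1a2, the main astrocyte glutamate transporter, had 1742, 1286 and 1791 CPM against 1220, 1130 and 1031 (0.47, SE 0.116, adjusted p = 0.014), and -0.01 with the cover offset.

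Of 8 neuron markers tested, 4 rose, Nefl, the light neurofilament chain, Meg3, Map2 and Snap25, at a median of 0.34. Nefl had 74, 42 and 70 CPM against 8, 0 and 0, with 83, 11 and 12 in enzyme-only. None of the 47 further markers tested (excitatory, inhibitory, thalamic, hippocampal and cerebellar neurons, oligodendrocytes and their precursors, microglia, endothelial cells and choroid plexus) was called by the edgeR test, 4 had an unadjusted p under 0.05 and DESeq2 called 0. At equal depth 11 of the 47 were higher. The oligodendrocyte median was -0.22.

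**Figure D5:**
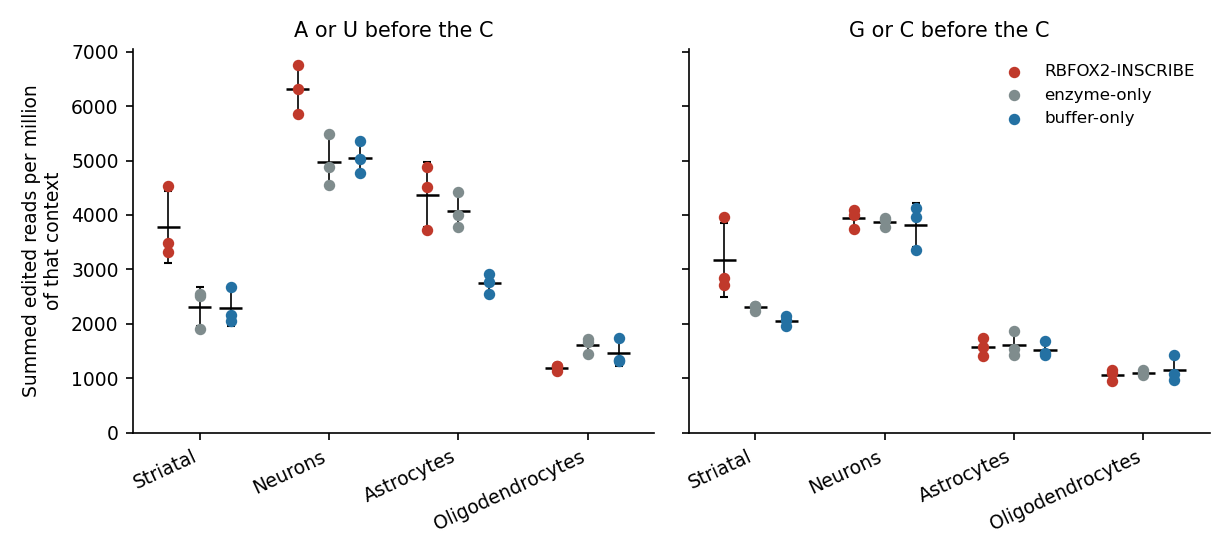
Summed CPM of that context over the markers of 4 cell types, for sites with A or U before the C (left) and G or C before the C (right); points are libraries and lines the mean with SD of 3 libraries. Striatal markers are higher in RBFOX2-INSCRIBE in both panels, astrocyte markers only in the left panel and there together with enzyme-only.

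Clusters per gene and region gave fewer calls and placed them mostly in introns. Of 4912 pairs of gene and region tested, 27 (0.55%) were higher and 2 (0.0407%) lower in RBFOX2-INSCRIBE (edgeR quasi-likelihood test, adjusted p under 0.05), with 462 under an unadjusted p of 0.05. Of the 27, 23 were intronic, beside 2519 intronic and 2393 exonic pairs among all those tested. Of the 27, 20 belonged to genes that also rose in edited reads. At equal depth, an alternative added after seeing the data, 535 pairs were higher and the median of all pairs moved to 0.36.

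Introns of Rarb led, with 22, 42 and 43 clusters in RBFOX2-INSCRIBE, 4, 3 and 7 in enzyme-only and 2, 0 and 0 in buffer-only (adjusted p = 1.3e-10). Introns of Pbx3, a homeodomain factor, held 8, 35 and 20 against 1, 0 and 3 (3.43, SE 0.584, adjusted p = 0.00015). Next came the introns of Spock3, a secreted proteoglycan (1.92), of Gng7, a G protein subunit of the striatum (1.87), and of Foxo1, a transcription factor (1.86), and exons of Rab3c (2.09). RBFOX2-INSCRIBE was above buffer-only in every library for all of these. Dot1l exons held 11, 19 and 16 clusters against 29, 25 and 19 (-1.10, adjusted p = 0.024) and Etl4 introns 203, 208 and 181 against 237, 178 and 177 (-0.44, adjusted p = 0.024). For these 2 the raw numbers touched or overlapped and the difference was one of shares.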

How the data were processed

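Reads were trimmed with cutadapt, cleared of repeats and aligned to mm10 with STAR (2.5.2) by the authors, who called C-to-U sites with SAILOR and clusters with FLARE. The deposited site lists give a confidence score and the count of edited and covering reads of each site. The deposited cluster lists give a score, counts of edited and target bases, edited fractions and the mean depth as a signal, and none is normalised. Groups came from the labels, 3 brain libraries each, and 0 columns of other samples were left unused.

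Sites (score above 0.5, fraction below 0.8) were placed in GENCODE genes of GRCm38 by strand, with 2.81% in several genes and 5.01% in none left out. FLARE labels naming several genes were resolved by gene spans, after which 97.9% of clusters had 1 gene. The depth signal was not used.

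Edited reads per gene and clusters per gene and region were tested with edgeR (4.0.16), quasi-likelihood, TMM and filterByExpr, in 1 fit of the 9 brain libraries, adjusted by Benjamini-Hochberg. Library measures had exact two-sided permutation tests. On simulated counts the gene test recovered 45% of 2-fold and 88% of 4-fold changes over 6357 genes. Alternatives covered DESeq2 (1.42.0), filters, contexts, depth, cover and left-out libraries.

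Named genes are the 12 largest rises and 8 largest falls (called, no overlap, mean of at least 20 edited reads), the RBFOX genes, the study's examples and the list members with the smallest p. Genes outside it (Calm2, Snhg14, loci and cluster genes) were named after their values were seen. The libraries and lists were chosen with earlier results of these data known. Some of the named genes are not reported here, but stayed in every fit, count and median.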

Additional observations from a re-analysis of the deposited data

How the results depend on the processing

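Sites, edited reads, clusters, A or U share, intron share and UGCAUG share per library kept their direction under every alternative run. The edit fraction turned to a difference of 0.0349 percentage points with every listed site. The 104 genes called by edited reads became 46 with the DESeq2 Wald test, 46 with edited sites in place of reads, 36 with at least 2 edited reads per site, 43 in introns only (added after seeing the data), 27 with the cover offset, 3 in the G or C context, 315 with every listed site and 1433 at equal depth. Leaving out 1 library gave 40 (without RBFOX2-INSCRIBE replicate 3) to 140 (without RBFOX2-INSCRIBE replicate 2), with 69 and 50 without buffer-only replicates 1 and 2. The 29 gene and region pairs became 7 with the DESeq2 Wald test, 18 when the fit held 6 libraries, 13 with labels of 1 gene and 535 at equal depth (both added after seeing the data), and 14 (without buffer-only replicate 2) to 38 (without buffer-only replicate 1) when 1 library was left out, with 17 without buffer-only replicate 3. Causes were not tested.

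Log2 changes that turned sign were Sparcl1 (-0.54), Atp2a2 (-0.48), Slc1a2 (-0.0082), Ppp3ca (-0.77, adjusted p = 0.0067 by edgeR) and Ywhag (-1.31) with the cover offset, and Meg3 (-0.20), Atp2a2 (-0.17), Snap25 (-0.12) and Ppp3ca (-0.0678) in the G or C context. At equal depth Gm26917 (0.0163), Gm42418 (0.0101) and Dlgap1 (0.0328) turned, in exons only Vps45 (0.25) and Shank3 (-0.41), in introns only Ppp3ca (-0.0422) and Ywhag (-0.0562), and with at least 2 edited reads Cacnb2 (-0.11).

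Same-numbered slices did not deviate together (r across genes 0.022, -0.054 and 0.090 for reads). With the replicate number as a block, edgeR called 109 genes and 30 pairs, and the exact permutation p of library measures was 0.25, the smallest it can give, and 0.75 for the intron share. Depth limits single sites, most of which rest on 1 edited read.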

Other observations

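Nrgn, the dendritic calmodulin-binding protein neurogranin, was lower in exons, and it was noticed after the values were seen. Its exons held 2 edited reads over the 3 RBFOX2-INSCRIBE libraries, 28 in enzyme-only and 42 in buffer-only (adjusted p = 0.0085, edgeR quasi-likelihood test in exons), and its introns 40, 35 and 27 (-0.08). Over the whole gene it had 48, 51 and 40 CPM against 46, 189 and 129, which overlapped and was not called (adjusted p = 0.055).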
